A study of Homo sapiens with 4 samples.

Results

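The 10 genes described here encode secreted growth factors, co-receptors and a proteoglycan of blood and lymph vessel growth: VEGFA, VEGFB, VEGFC, PGF, NRP1, NRP2, ESM1, ANGPT1, ANGPT2 and ANGPTL4. They were chosen by name, with earlier results of these data known. Every probe set whose platform annotation gives exactly 1 of these symbols was used. This yielded 33 of the 54613 probe sets that are no controls and 10 of 19775 named genes. Expression was measured in UM-UC-3, a cell line grown from a human bladder carcinoma, on 4 Affymetrix HG-U133 Plus 2.0 arrays. The GFP-RhoGDI2 line had been stably transfected with RhoGDI2, the product of ARHGDIB, tagged with GFP. The GFP line carried the GFP vector alone, brought in beside a plasmid for puromycin resistance. Both lines had been sorted by fluorescence, both were harvested in log phase growth, and each gave 2 arrays, A and B, from preparations made at different times and paired between the lines. The sources used here do not give the promoter of the transgene or say whether the 2 preparations go back to separate transfections. The p-values therefore rest only on how far the difference between the lines varied between these preparations, with variances pooled over probe sets. Differences between the lines that arose when they were made and differences due to the introduced gene cannot be told apart. The sample description of the GFP-RhoGDI2 arrays speaks of the control transfection, and the groups were taken from their titles and the other labels. ARHGDIB, measured by 3 probe sets, matched those titles in its brightest one, with values of 11.94 and 11.58 in GFP-RhoGDI2 cells and 6.51 and 6.27 in GFP cells, a difference of 5.37. A second ARHGDIB probe set differed by 0.94, the third by -0.02 with overlapping groups, and their mean by 2.10.

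VEGF family ligands are dimers that act on receptor tyrosine kinases of endothelial cells: VEGFA, VEGFB and PGF bind FLT1, VEGFA also binds KDR, and VEGFC binds FLT4 and, once processed, KDR. Neuropilins are co-receptors that hold VEGF ligands beside these kinases and also receive class 3 semaphorins, which act as guidance cues for axons and vessels. Angiopoietins act on the endothelial receptor TEK, and ESM1, also called endocan, is a secreted dermatan sulfate proteoglycan best known from endothelial cells. Tumour cells are a known source of VEGF ligands, while the kinases are found mainly on endothelium.

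Values are log2 RMA expression per probe set, so a difference of 1 is a 2-fold change; levels of different probe sets are not on a common scale and are not compared. Differences are GFP-RhoGDI2 minus GFP from limma with preparation as a block, the probe set with the highest mean over the 4 arrays stands for a gene, and probe sets with a mean under 4.637 over the 4 arrays were not tested. In bulk samples, fewer cells of a type and less RNA per cell cannot be told apart. A gene was called at an adjusted p under 0.05 over all tested probe sets. Of the 10 genes, 9 were tested. VEGFC and VEGFA rose, ESM1 fell, and 6 did not pass. Among all 12123 tested genes 4.83% were called higher and 3.35% lower. The median difference of the 9 genes was 0.32, against -0.01 over all tested genes. In 7 of the 10 genes both GFP-RhoGDI2 arrays lay above both GFP arrays, and in 3 both lay below. Of those 3, ESM1 was called, PGF differed by only -0.007 in preparation B, and ANGPT2 lay under the filter. Over all named genes these shares were 21.6% and 25.7%. An unadjusted p under 0.05 was reached by 6 of the 9 tested members and by 3290 of the 12123 tested genes. As the members were chosen with earlier results of these data known, these comparisons with all genes are a description only.

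**Figure D1:**
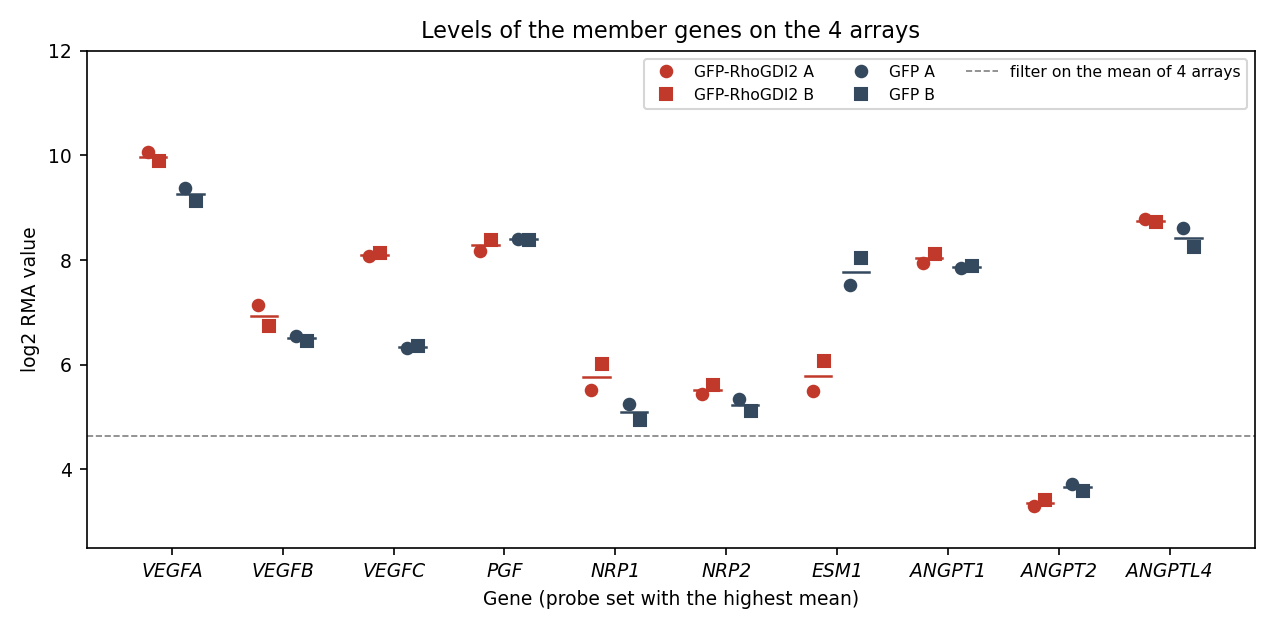
Log2 RMA value (y axis) of each member gene (x axis) on each array, with GFP-RhoGDI2 in red to the left of GFP in dark blue, circles for preparation A, squares for B, short bars for group means (n = 2) and a dashed line at the filter of 4.637. VEGFC stands 1.76 higher and ESM1 2.00 lower in GFP-RhoGDI2 cells with no overlap, and ANGPT2 lies under the filter on all 4 arrays; levels of different genes are not comparable.

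VEGFC, the ligand of lymphatic vessel growth, had the largest rise of the VEGF ligands. Its value was 8.07 and 8.13 in GFP-RhoGDI2 cells A and B, against 6.32 and 6.35 in GFP cells. The groups did not overlap, and the gap between them was many times the spread within either. The difference was 1.76 (95% interval 1.53 to 1.99, SE 0.092, adjusted p = 7.78e-04), a 3.38-fold change, with 1.74 in preparation A and 1.77 in preparation B. VEGFC was called under each of the 11 alternative settings tried, with differences of 1.73 to 1.79 and adjusted p from 3.48e-10 to 0.00444. It ranked 56 by size of rise among the 12123 tested genes.

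VEGFA, the main ligand of blood vessel growth, rose by less. Its best measured probe set read 10.06 and 9.89 in GFP-RhoGDI2 cells and 9.38 and 9.13 in GFP cells, so both GFP-RhoGDI2 arrays were higher and the groups did not overlap. The difference was 0.72 (95% interval 0.49 to 0.95, SE 0.093, adjusted p = 0.0144), a 1.65-fold change. The gene has 4 probe sets, and each of them was called, with differences of 0.72, 0.72, 0.61 and 0.51. Under the alternatives that tested them, they kept the call in 6 of 9, 5 of 8, 3 of 8 and 2 of 9 settings. Of all single-gene probe sets tested, 4.98% were called higher; probe sets of 1 gene share its transcripts and are not independent. The VEGFA call was lost when any 1 of 3 arrays was left out: without GFP array B and the block the difference was 0.59 (adjusted p = 0.0813), without GFP-RhoGDI2 array A it was 0.63 (0.134) and without GFP-RhoGDI2 array B it was 0.80 (0.0883), within a range of 1.18e-06 to 0.134 over all alternatives. Without the replicate block the calls of the VEGFA probe sets 212171_x_at and 210513_s_at were lost (adjusted p = 0.0547 and 0.0833), and 210513_s_at differed by 0.39 without GFP array B.

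VEGFB, a ligand of FLT1 studied mostly in heart and metabolism, did not pass. It stood at 7.13 and 6.74 in GFP-RhoGDI2 cells, against 6.56 and 6.45 in GFP cells, without overlap but with a gap smaller than the spread between the GFP-RhoGDI2 arrays. Its difference was 0.44 (95% interval 0.17 to 0.71, adjusted p = 0.0710). It was 0.24 without GFP-RhoGDI2 array A and 0.63 without GFP-RhoGDI2 array B. It passed with an intensity trend in the variances (adjusted p = 0.0134) and when the probe sets of each gene were averaged (0.00607), and adjusted p ran from 0.00607 to 0.466 over the alternatives.

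PGF, the placental growth factor, gave different pictures from its 2 probe sets, of which 1 was called higher and the other was not called. The probe set with the higher mean, 215179_x_at, read 8.17 and 8.38 in GFP-RhoGDI2 cells and 8.40 and 8.39 in GFP cells, a difference of -0.12 (95% interval -0.37 to 0.14, adjusted p = 0.514). The other, 209652_s_at, read 6.17 in each GFP-RhoGDI2 array, against 4.69 and 4.89 in GFP cells. That probe set was called, with a difference of 1.38 (95% interval 1.13 to 1.63, adjusted p = 0.00253) or 2.60-fold, and it stayed called in all 8 alternatives that tested it. With the mean of both probe sets PGF was higher by 0.63 (adjusted p = 2.53e-04), so whether PGF is called higher depends on the probe set taken. Identifiers ending in _x_at or _s_at mark probe sets that can match several transcripts, and their probe sequences were not used here.

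The neuropilins pointed upward in most probe sets but were not called through their best measured ones. NRP1, co-receptor for VEGFA and SEMA3A, read 5.51 and 6.02 in GFP-RhoGDI2 cells and 5.24 and 4.93 in GFP cells. The preparations differed in size, with 0.27 in A and 1.08 in B, and the overall difference of 0.68 (95% interval 0.19 to 1.16, SE 0.194) did not pass (adjusted p = 0.0960); with an intensity trend it did (0.00768; range over alternatives 0.00768 to 0.323). Without GFP-RhoGDI2 array B the NRP1 difference was 0.42. A second NRP1 probe set, 212298_at, lay under the filter by its mean and had no test. It read 4.95 and 5.55 in GFP-RhoGDI2 cells, against 3.71 and 3.69 in GFP cells, a difference of 1.55. With no filter on low values that probe set was called (adjusted p = 0.00435). The remaining 2 NRP1 probe sets lay between 2.77 and 3.52 on all arrays, with overlapping groups.

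NRP2, the neuropilin of lymphatic endothelium and a co-receptor for VEGFC, has 11 probe sets, of which 3 were tested and 1 was called. The best measured one read 5.44 and 5.61 in GFP-RhoGDI2 cells, against 5.34 and 5.12 in GFP cells, and differed by 0.29 (95% interval -0.01 to 0.60, adjusted p = 0.198), or by 0.19 without GFP array B. Next to it 225566_at, at 5.12 and 5.33 in GFP-RhoGDI2 cells against 4.84 and 4.78 in GFP cells, missed the threshold (adjusted p = 0.0773). The called one, 222877_at, read 4.90 and 5.62 in GFP-RhoGDI2 cells and 4.05 and 4.51 in GFP cells. Its difference was 0.98 (95% interval 0.71 to 1.24, adjusted p = 0.00888), and it passed the filter only through its GFP-RhoGDI2 arrays. This call was lost without the replicate block (adjusted p = 0.0788), and, also without the block, at 0.75 without GFP array A (0.195), at 1.21 without GFP array B (0.0520) and at 0.62 without GFP-RhoGDI2 array B (0.237); adjusted p over the alternatives ran from 2.40e-04 to 0.237. All 11 probe sets had differences above 0, from 0.07 to 0.98, and in 8 the groups did not overlap. Of all single-gene probe sets, 21.4% had both GFP-RhoGDI2 arrays above both GFP arrays. The 11 measure 1 gene on the same arrays and are not independent, and only 3 of them were tested. The untested 223510_at, at 4.51 and 4.71 in GFP-RhoGDI2 cells against 3.79 and 3.99 in GFP cells, was called with no filter on low values (0.72, adjusted p = 0.0202).

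Of the angiopoietins, ANGPT1 was tested and did not pass, and ANGPT2 was not tested. ANGPT1, the activating ligand of TEK, read 7.95 and 8.11 in GFP-RhoGDI2 cells, against 7.85 and 7.88 in GFP cells. Its difference was 0.17 (95% interval -0.07 to 0.41, adjusted p = 0.332), and another of its probe sets, with overlapping groups, differed by 0.06 (95% interval -0.22 to 0.34, adjusted p = 0.762). Leaving out 1 array moved the first difference to between 0.08 (without GFP-RhoGDI2 array B) and 0.25 (without GFP-RhoGDI2 array A). The intervals leave room for changes of up to 0.41 on the log2 scale. With the mean of its probe sets ANGPT1 was called at 0.31 (adjusted p = 0.0288; range over alternatives 0.0288 to 0.829). The third ANGPT1 probe set, not tested, stood at 4.31 and 3.61 in GFP-RhoGDI2 cells, against 3.31 and 3.20 in GFP cells.

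ANGPT2, the context-dependent antagonist of ANGPT1, was near the low end of the scale. Its 4 probe sets lay between 2.95 and 3.72 on every array, none reached the filter, and in 3 of them the groups overlapped. The exception, 211148_s_at, read 3.30 and 3.41 in GFP-RhoGDI2 cells and 3.72 and 3.59 in GFP cells. Without detection calls such values are not shown to be above background.

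ANGPTL4, a secreted inhibitor of lipoprotein lipase whose transcript is known to respond to low oxygen and to PPAR factors, read 8.79 and 8.72 in GFP-RhoGDI2 cells, against 8.61 and 8.26 in GFP cells. The gap between the groups was smaller than the spread between the GFP arrays. Its difference was 0.32 (95% interval 0.05 to 0.59, adjusted p = 0.133), and its second probe set differed by 0.22 (95% interval -0.05 to 0.48, adjusted p = 0.262). The first difference was 0.15 without GFP array B and 0.50 without GFP array A, and the second was 0.08 and 0.35 in the same settings. The first passed with a trend of the variances on intensity (adjusted p = 0.0199) and when only probe sets above the upper quartile of mean values were tested (0.0399), and adjusted p ran from 0.0199 to 0.647 over the alternatives.

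ESM1 moved the other way. Its single probe set read 5.49 and 6.07 in GFP-RhoGDI2 cells, against 7.52 and 8.04 in GFP cells. Array B was higher than array A by a similar amount in both lines, so that the difference was -2.03 in preparation A and -1.97 in preparation B. Over both it was -2.00 (95% interval -2.23 to -1.77, SE 0.093, adjusted p = 4.58e-04), a 3.99-fold lower level, and it ranked 6 by size of fall among the 12123 tested genes. The call held in all 9 alternatives that tested it, with differences of -2.29 to -1.71 and adjusted p from 1.17e-10 to 0.0214. The probe set is of the _x_at class, and ESM1 had no other probe set to set beside it.

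**Figure D2:**
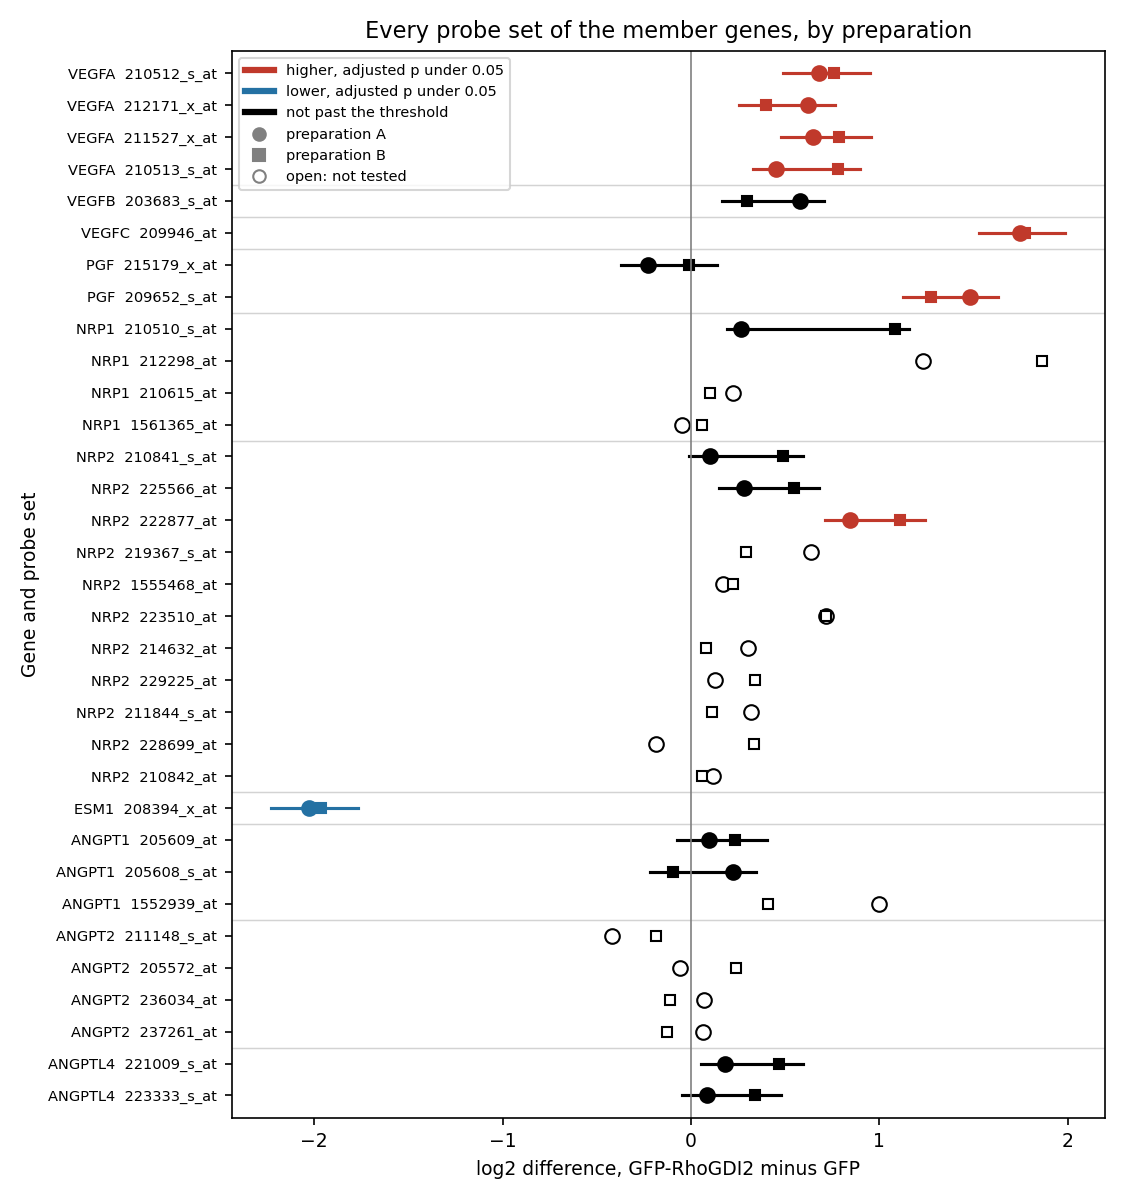
Log2 difference, GFP-RhoGDI2 minus GFP (x axis), for each of the 33 probe sets of the members (y axis, by gene): circles for preparation A, squares for B, lines for the 95% interval of the fitted difference, red for higher and blue for lower at an adjusted p under 0.05, open symbols for probe sets that were not tested. The 4 VEGFA probe sets agree within 0.51 to 0.72, the 2 of PGF stand at -0.12 and 1.38, and all 11 of NRP2 have a mean difference above 0.

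The sequence before the transcription start is shown for VEGFC and ESM1, the members with the largest rise and the largest fall, and for ANGPTL4, whose window shares a TATAAA match with that of ESM1. Each is the 250 bases before the start annotated by RefSeq, 5′ to 3′ on the gene's strand, in GRCh38.p14: chr4:176792923-176793172 on the minus strand for VEGFC, chr5:54985594-54985843 on the minus strand for ESM1 and chr19:8363905-8364154 on the plus strand for ANGPTL4. Capitals mark matches, on either strand, to the hypoxia response cores ACGTG and GCGTG, the AP-1 core TGANTCA, the TATA box TATAAA and the GC box GGGCGG.
VEGFC: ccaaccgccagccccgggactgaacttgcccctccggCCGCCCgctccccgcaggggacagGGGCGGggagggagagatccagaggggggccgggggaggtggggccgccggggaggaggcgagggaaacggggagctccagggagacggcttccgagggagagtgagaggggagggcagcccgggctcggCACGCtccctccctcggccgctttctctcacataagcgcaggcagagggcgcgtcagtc
ESM1: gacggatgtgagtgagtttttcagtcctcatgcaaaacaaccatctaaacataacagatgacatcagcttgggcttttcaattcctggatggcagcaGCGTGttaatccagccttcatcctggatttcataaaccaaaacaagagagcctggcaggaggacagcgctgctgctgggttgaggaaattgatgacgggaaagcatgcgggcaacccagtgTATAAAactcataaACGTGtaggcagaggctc
ANGPTL4: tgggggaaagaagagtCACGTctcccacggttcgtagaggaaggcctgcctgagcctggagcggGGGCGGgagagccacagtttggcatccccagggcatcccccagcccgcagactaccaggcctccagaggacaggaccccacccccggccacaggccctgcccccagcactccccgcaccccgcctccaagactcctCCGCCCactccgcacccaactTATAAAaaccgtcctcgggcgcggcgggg

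The windows differ in composition. VEGFC has 74.0% G and C and ESM1 47.6%, around a median of 58.0% over 35116 promoter windows of this length. ESM1 holds TATAAA from 32 to 27 bases before the start and ANGPTL4 from 29 to 24, a motif found in 10.7% of all windows. ANGPTL4 was shown because of this match, so the sharing was set by the choice. The windows of VEGFB, VEGFC, PGF and NRP2 do not hold these letters. VEGFC and ANGPTL4 hold 2 GC boxes each, a motif of 42.6% of windows, and ESM1 holds 0. ACGTG, in 18.5% of windows, lies 18 to 14 bases before the ESM1 start and 234 to 230 bases before that of ANGPTL4. GCGTG, in 32.2% of windows, lies 59 to 55 bases before the VEGFC start and 153 to 149 before that of ESM1. TGANTCA, in 6.57% of windows, was in none of the 7 windows that the table gives for 6 members (VEGFB, VEGFC, PGF, NRP2, ESM1 and ANGPTL4). These matches are a description of letters and do not show that a factor binds.

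**Figure D3:**
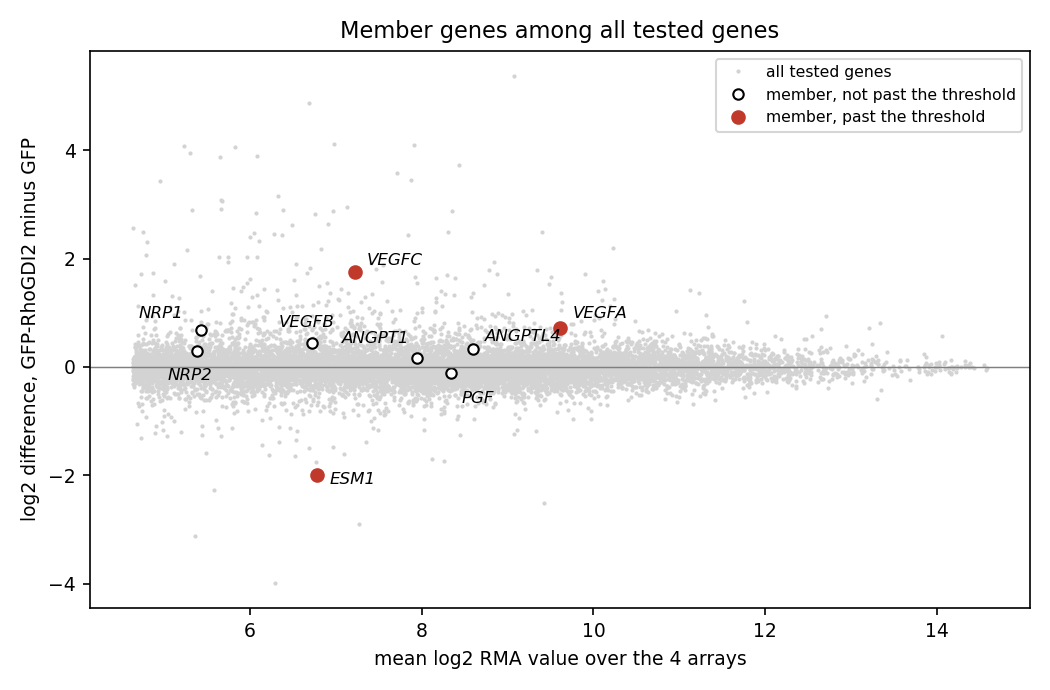
Log2 difference, GFP-RhoGDI2 minus GFP (y axis), against the mean log2 RMA value over the 4 arrays (x axis) for all 12123 tested genes in grey, with called members as filled red points and the other tested members as open points. VEGFC and ESM1 stand outside the bulk of genes of like mean value, VEGFA lies at its upper edge and the remaining 6 lie within or near it.

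Genes with the most similar values were found as those at the smallest Euclidean distance over the 4 arrays, each gene centred on its own mean, among the other 12122 tested genes. Nearest to VEGFC were ATXN1 (distance 0.066), LMO4 (0.118) and ADGRG6 (0.119), higher by 1.74, 1.66 and 1.68. Nearest to VEGFA were LGALS1 (0.031), which encodes galectin-1, TADA3 (0.035) and the pseudogene PDCD6IPP2 (0.055). Nearest to ESM1, at larger distances, were ZNF804A (0.423), GULP1 (0.439) and PLEKHA5 (0.466), with differences of -1.76, -1.69 and -1.64. With 4 arrays many genes share such a profile, so the distance is a description only.

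No tested receptor of these ligands passed the test. Of 14 receptor and further ligand genes, 9 were on the array through a single-gene probe set, 4 were tested and 0 were called by limma, with 0 at an unadjusted p under 0.05. FLT1 read 6.82 and 6.85 in GFP-RhoGDI2 cells, against 6.97 and 6.91 in GFP cells (difference -0.10, 95% interval -0.34 to 0.13, adjusted p = 0.530). FLT4, the receptor of VEGFC, read 5.65 and 5.62 in GFP-RhoGDI2 cells and 5.65 and 5.56 in GFP cells, with overlapping groups (difference 0.03, 95% interval -0.20 to 0.26, adjusted p = 0.865). ANGPT4, a further TEK ligand, differed by 0.10 (adjusted p = 0.549). KDR, at 2.93 and 3.12 in GFP-RhoGDI2 cells against 3.04 and 3.47 in GFP cells, and TEK, at 4.28 and 4.41 in GFP-RhoGDI2 cells against 4.43 and 4.31 in GFP cells, lay under the filter.

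Among class 3 semaphorins, plexins and adaptors, 6 of 12 measured genes were tested, 1 fell and 0 rose, with a median difference of 0.08. For all tested genes 3.35% fell, 4.83% rose and the median was -0.01. In limma, 4 of these 6 had an unadjusted p under 0.05, against 3290 of all 12123 tested genes. SEMA3A, the repulsive ligand of NRP1, read 5.59 and 6.07 in GFP-RhoGDI2 cells, against 6.42 and 6.68 in GFP cells. It fell by 0.72 on the log2 scale (adjusted p = 0.0184). That call was lost without the replicate block (adjusted p = 0.0729) and, also without the block, without GFP array A (-0.85, 0.0773), GFP array B (-0.59, 0.174), GFP-RhoGDI2 array A (-0.48, 0.230) or GFP-RhoGDI2 array B (-0.96, 0.0554), in a range of 3.98e-04 to 0.230 over the alternatives. PLXNA1, a signalling partner of neuropilins, differed by 0.43 and missed the threshold (adjusted p = 0.0510); another probe set, taken when _s_at and _x_at probe sets were left out, gave -0.01, and the mean of its probe sets gave 0.15. PLXNA1 passed with variances that follow intensity (adjusted p = 0.00310) and among probe sets above the upper quartile (0.00825), in a range of 0.00310 to 0.977.

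Of 11 genes whose products process or release VEGF ligands, 8 were tested, 3 rose and 0 fell, with a median of 0.17. Over all tested genes 4.83% rose, 3.35% fell and the median was -0.01. In limma, 4 of these 8 had an unadjusted p under 0.05, against 3290 of all 12123 tested genes. CCBE1, which directs the cleavage of VEGFC by ADAMTS3, read 5.74 in each GFP-RhoGDI2 array, against 4.68 and 5.07 in GFP cells, and rose by 0.87 (adjusted p = 0.0184). The gelatinase MMP2 read 7.17 and 7.44 in GFP-RhoGDI2 cells, against 5.69 and 5.72 in GFP cells, and rose by 1.60 (adjusted p = 0.00169), called in all 9 alternatives that tested it. PLAU, the urokinase that activates plasminogen, read 11.55 and 11.87 in GFP-RhoGDI2 cells, against 10.93 and 11.01 in GFP cells, and rose by 0.74 (adjusted p = 0.0175). The CCBE1 call was lost, without the block, when GFP array A (0.67, adjusted p = 0.0526), GFP-RhoGDI2 array A (0.86, 0.0992) or GFP-RhoGDI2 array B (0.87, 0.110) was left out. Likewise that of PLAU was lost without GFP array A (0.70, 0.0821), GFP array B (0.78, 0.0527) or GFP-RhoGDI2 array B (0.58, 0.128). Over all alternatives adjusted p ran from 1.50e-04 to 0.110 for CCBE1 and from 3.99e-08 to 0.128 for PLAU. FURIN and PCSK7, proprotein convertases that cut VEGFC, differed by 0.07 and -0.05 and were not called, and 3 genes of this list lay under the filter. Of those, the convertase PCSK5 read 3.71 and 3.68 in GFP-RhoGDI2 cells, against 3.02 and 3.17 in GFP cells, PLAT, the tissue plasminogen activator, read 3.34 and 3.73 in GFP-RhoGDI2 cells, against 3.17 and 3.23 in GFP cells, and the groups of ADAMTS3 overlapped.

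Other secreted angiogenic factors and inhibitors moved both ways: of 20 measured genes 15 were tested, 3 rose and 1 fell, with a median of -0.04. The shares over all tested genes were 4.83% higher and 3.35% lower, with a median of -0.01. In limma, 4 of these 15 had an unadjusted p under 0.05, against 3290 of all 12123 tested genes. ANG, the ribonuclease angiogenin, rose by 1.06 (adjusted p = 0.00906) to 6.13 and 5.95 in GFP-RhoGDI2 cells, against 4.89 and 5.06 in GFP cells. The growth factor gene PDGFC rose by 0.80 (adjusted p = 0.0105), and COL18A1, whose collagen holds endostatin, rose by 0.83 (adjusted p = 0.0228). PTN, the heparin-binding pleiotrophin, read 4.96 and 4.82 in GFP-RhoGDI2 cells, against 6.00 and 5.95 in GFP cells, and fell by 1.08 on the log2 scale (adjusted p = 0.00403). Without the block, the PDGFC call was lost without GFP-RhoGDI2 array A (0.78, adjusted p = 0.0634) or B (0.82, 0.0602). The COL18A1 call was lost without GFP array A (0.62, 0.0682), GFP-RhoGDI2 array A (0.82, 0.120) or GFP-RhoGDI2 array B (0.83, 0.128). Over all alternatives adjusted p ran from 2.06e-07 to 0.0634 for PDGFC and from 2.07e-04 to 0.128 for COL18A1. ANG and PTN were called in all alternatives that tested them.

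The HIF pathway is the oxygen-sensing route known to control VEGFA and ANGPTL4. Of 16 measured genes 14 were tested: 5 rose, 0 fell and 9 were not called, with a median of 0.27. Among all tested genes 4.83% rose, 3.35% fell and the median was -0.01. In limma, 8 of these 14 had an unadjusted p under 0.05, against 3290 of all 12123 tested genes. Genes not called include SLC2A1, BNIP3 and LDHA, with differences of 0.20, 0.23 and 0.24. EPAS1, the HIF-2 alpha subunit, read 10.11 and 10.16 in GFP-RhoGDI2 cells, against 9.34 and 9.34 in GFP cells, and rose by 0.79 (adjusted p = 0.0105), a call lost only without GFP-RhoGDI2 array B and the block among the 11 alternatives (0.77, 0.0642; lowest 2.24e-07). With the mean of its probe sets the EPAS1 difference was 0.42. HIF1A, the HIF-1 alpha subunit, differed by 0.03 (adjusted p = 0.904). DDIT4, a hypoxia-induced brake on mTOR, read 10.93 and 10.61 in GFP-RhoGDI2 cells, against 9.17 and 8.92 in GFP cells, and NDRG1, another hypoxia-induced gene, read 9.69 and 9.93 in GFP-RhoGDI2 cells, against 8.76 and 8.75 in GFP cells. They rose by 1.72 and 1.06 (adjusted p = 8.82e-04 and 0.00675) and were called in all 10 alternatives that tested them. ANKRD37 rose by 0.61 (adjusted p = 0.0267), but was not called without the block when any 1 array was left out (0.55 to 0.67, adjusted p = 0.0600 to 0.135), and came to 0.31 with the mean of its probe sets (lowest adjusted p 1.45e-04). PDK1, a kinase that restrains pyruvate dehydrogenase and was named after its value was seen, rose by 0.45 (adjusted p = 0.0446), not past the threshold without the block (0.0572), and its call held in 3 of 11 alternatives (7.10e-05 to 0.205). With the mean of its probe sets the PDK1 difference was 0.24 (adjusted p = 0.0817).

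**Figure D4:**
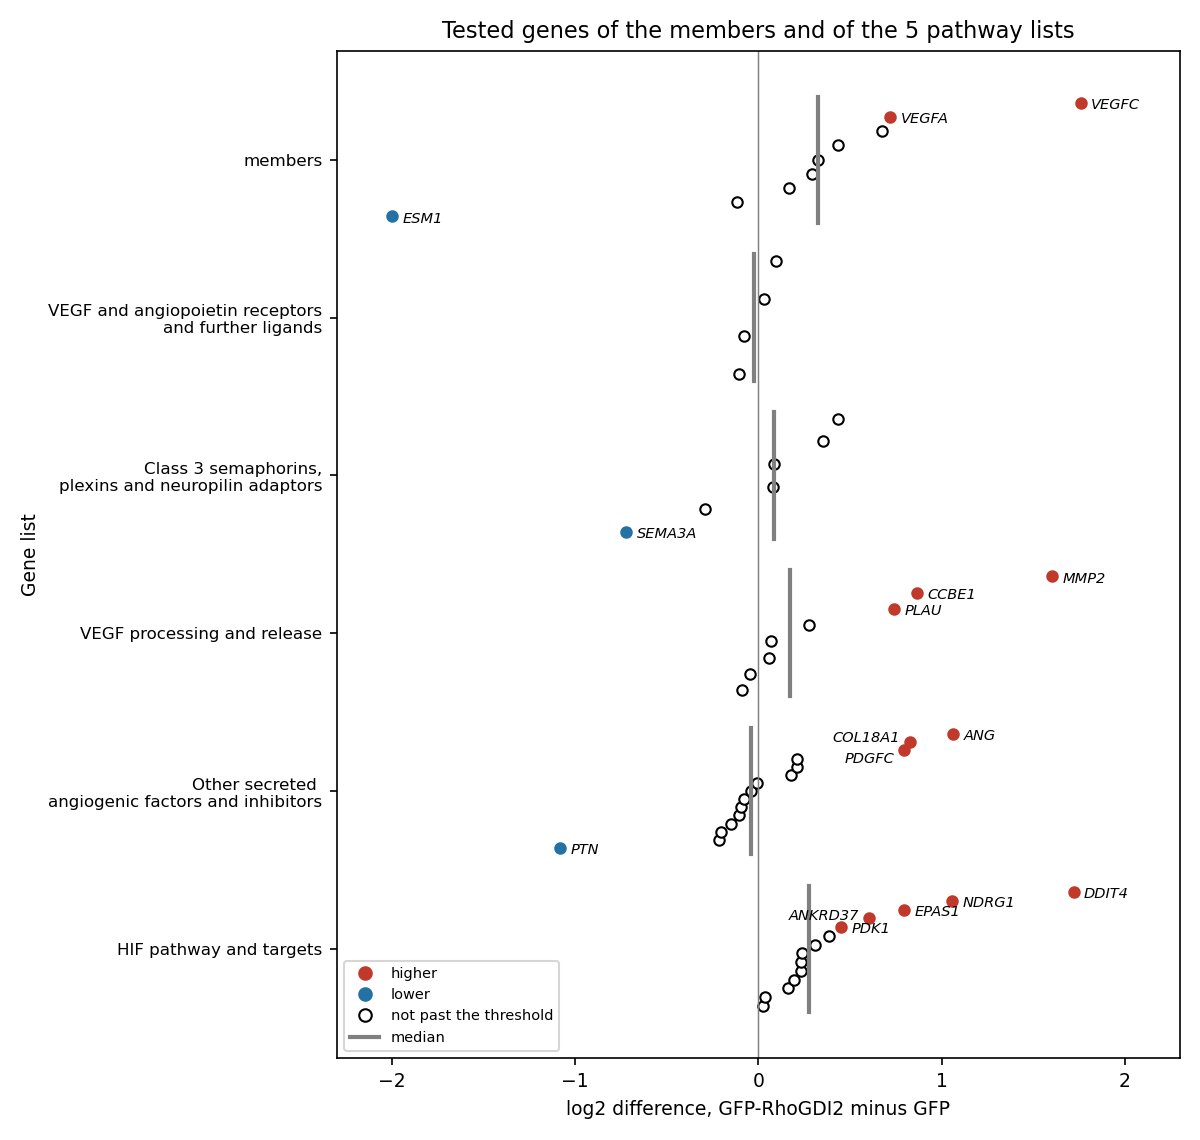
Log2 difference, GFP-RhoGDI2 minus GFP (x axis), of each tested gene of the members and of 5 related lists (y axis), red for called higher, blue for called lower, open for not called, with a grey bar at each list's median; called genes are named, and vertical offsets within a list only separate points. The median is 0.32 for the members, 0.27 for the HIF list and -0.02 for receptors and further ligands.

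Arrays of 1 line resembled each other (r = 0.9964 for GFP-RhoGDI2 and 0.9958 for GFP, across probe sets), and array medians ran from 4.624 to 4.647. The 3′ minus 5′ log2 value of the ACTB control probe sets was 0.74 and 0.82 in GFP-RhoGDI2 cells and 0.94 and 0.90 in GFP cells, and that of GAPDH was at most 0.053 on any array; the part of this in the results was not tested. Since endothelium is where most of these ligands act and where ESM1 is best known, 12 endothelial markers were read: 4 were tested, 0 were called by limma and 0 had an unadjusted p under 0.05. Their summed linear level was 302.3 and 289.4 in GFP-RhoGDI2 cells and 325.7 and 297.5 in GFP cells. Such sums, here and below, add probe sets that are not on a common scale and follow the brightest ones. They are no measure of cell content. CDH5, a defining endothelial cadherin, lay under the filter and read 2.94 and 3.32 in GFP-RhoGDI2 cells and 3.13 on each GFP array. The 4 tested markers were PECAM1, TIE1, ROBO4 and PROX1, with means over the 4 arrays of 5.31, 4.78, 6.28 and 5.36. ROBO4 was lower without overlap (-0.12, adjusted p = 0.483 by limma), and the groups of PECAM1, TIE1 and PROX1 overlapped. Of 6 fibroblast and pericyte markers 0 were called (1 of 2 tested at an unadjusted p under 0.05), with sums of 295.6 and 293.6 in GFP-RhoGDI2 cells and 277.2 and 265.9 in GFP cells. Of 5 measured leukocyte markers 0 were called (0 of 1 tested at an unadjusted p under 0.05). Of 10 measured urothelial and epithelial markers, 7 lay under the filter: UPK1A, UPK2, UPK3A, KRT5, KRT20, CDH1 and EPCAM. Of these, UPK1A read 4.95 and 4.55 in GFP-RhoGDI2 cells, against 4.18 and 4.03 in GFP cells, KRT5 and EPCAM differed by -0.17 and -0.15 without overlap, and the groups of the other 4 overlapped. GATA3 was tested and did not pass (-0.20, adjusted p = 0.428). The summed linear level of all 10, a value set mostly by the KRT18 probe set, was 8644 and 8836 in GFP-RhoGDI2 cells, against 13411 and 13392 in GFP cells. The part of this in the results was not tested. KRT8, an epithelial keratin, read 8.52 and 8.39 in GFP-RhoGDI2 cells, against 9.80 and 9.58 in GFP cells, and its partner KRT18 read 12.99 and 13.03 in GFP-RhoGDI2 cells, against 13.60 and 13.61 in GFP cells. They fell by 1.23 and 0.59 on the log2 scale (adjusted p = 0.00278 and 0.0225). The KRT18 call was lost, without the block, whichever array was left out (adjusted p = 0.0721 to 0.118).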

How the data were processed

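Total RNA, 6 µg per sample, was labelled with biotin and hybridized to 1 array per sample, per the labels' protocols. The deposited values are log2 expression per probe set, which the authors computed by RMA, per the submitters' processing notes; the sources used here name neither its software nor a version. They were used without further normalization, as array medians were nearly equal. The number of arrays limits the precision; the intervals are at 95%.

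From 54675 probe sets, 62 controls were left out. The platform annotation named 1 gene for 41091, several for 1801 and did not list 11721; only the first kind was used for genes. Probe sets with a mean at or above the median of 4.637 were tested, 27307 in all (12123 genes), with limma 3.58.1 in R 4.3.3, preparation as a block, and Benjamini-Hochberg adjustment over all of them. The fit had 1 residual degree of freedom, with 4.71 added by moderation, so p-values lean on the variance pooled over probe sets. The pairing comes from the labels; the differences between preparations A and B in one line correlated with those in the other at r = 0.264 over the tested probe sets. The fit was tested on simulated data.

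All members were named, with ARHGDIB and the 3 nearest genes of each called member. From each list up to 4 called genes were named, or the 2 largest differences where fewer than 2 were called. FLT4, FURIN, PCSK5, PCSK7, PLAT, ADAMTS3, KDR, TEK, HIF1A, PDK1, SLC2A1, BNIP3, LDHA and the marker genes were named outside this rule. This was after their values were seen. The members and lists were chosen with earlier results of these data known. The settings also tried were a fit that ignores preparation, leaving out each array in turn (likewise ignoring preparation), other filters, an intensity trend, quantile normalization, averaging of each gene's probe sets, and no _s_at or _x_at probe sets. Promoter sequences are RefSeq's.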

Additional observations from a re-analysis of the deposited data

How the results depend on the processing

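Of the members, VEGFC was called in all 11 alternatives and ESM1 in the 9 that tested it, while the calls of VEGFA and of the NRP2 probe set depended on the arrays used. The number of members called higher, 2, was 1 to 2 when 1 array was left out, 5 with an intensity trend, 5 with each gene's probe sets averaged and 1 without _s_at and _x_at probe sets. The number called lower, 1, was 1 whichever array was left out and 0 both without _s_at and _x_at probe sets and among probe sets with a mean above the upper quartile, where ESM1 was not tested. Genes of the 5 lists called, 13, came to 5 to 9 when 1 array was left out and to 8 without _s_at and _x_at probe sets. Over all genes, 585 higher and 406 lower became 400 and 241 without the replicate block, 152 to 302 and 60 to 132 when 1 array was left out (also without the block), 460 and 235 with no filter, 902 and 974 above that quartile, 1405 and 1474 with an intensity trend and 1198 and 1116 with the mean of probe sets. Signs turned for PGF with the mean of its probe sets (0.63) and for PLXNA1 without _s_at and _x_at probe sets (-0.0063). Both come from taking other probe sets. The sign also turned for the ANGPT1 probe set 205608_s_at without GFP array A (-0.11, in a range of -0.11 to 0.24 over the arrays left out). That setting leaves GFP array B, at 7.57, alone against 7.44 and 7.47 in GFP-RhoGDI2 cells, while GFP array A read 7.22. Why the GFP arrays differed was not tested. Leaving out the block changed the call of no member gene; it ended those of 3 member probe sets, SEMA3A and PDK1, with values given beside each result. When 1 array is left out, the remaining single array of that line is assumed to vary like those of the other. Values near the low end of the scale, as for ANGPT2, are not shown to be above background.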
